A study of Homo sapiens with 8 samples.

Results

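The changes in mRNA levels that followed transfection of a miR-210-3p mimic, against a negative control (NC) RNA, were measured in SAS cells, an established line from a human squamous cell carcinoma of the tongue. The comparison used the 2 arrays labelled miR-210-3p and the 2 labelled miR-Negative Control, which make up 4 of the 8 arrays of the series, and the 4 arrays of the miR-629-3p and miR-874-3p mimics entered only the estimate of the spread and the side comparisons named below. All groups received 25 nM of RNA with a lipid reagent and no other treatment, and total RNA was labelled in 1 colour for Agilent whole-genome expression arrays. The methods of the study name different suppliers for the mimics and for the negative control. Supplier and group therefore cannot be told apart in the comparison with NC, while the mimics share a supplier. The labels give 48 h to extraction and the name SAS, while the methods of the study give a shorter time and a SAS line with a green fluorescent protein vector, which would be shared by all groups. The study asked how microRNAs that are abundant in cells with the standard form of CD44 bear on the response to cisplatin. Nothing states that the 2 arrays of a group came from separate cultures, so all p-values measure the spread between these arrays, which may be technical.

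MicroRNAs are short RNAs that guide Argonaute proteins to mRNAs, mainly through pairing of the seed near their 5′ end, and lower the level or the translation of those mRNAs. miR-210-3p is the microRNA most widely known to be induced by hypoxia through HIF-1. Its best known targets encode parts of iron-sulphur cluster assembly and of the mitochondrial respiratory chain, and it is also reported to act on cell cycle, receptor and ephrin genes.

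The mature strand is shown because its seed defines the sites searched for in the array probes. It lies at chr11:568112-568133 on the minus strand (RefSeq, GRCh38.p14), and capitals mark bases 2 to 8.
hsa-miR-210-3p: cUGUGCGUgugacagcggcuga
A DNA letter sequence that pairs with these bases reads ACGCACA, and the shorter match to bases 2 to 7 reads CGCACA. The following 24-base stretches are from the array's own probes on hg19 and carry that match in capitals, in 3 of the 4 genes with such a probe that fell with miR-210-3p. The stretches lie at chr5:61684573-61684596 and chr1:68564229-68564252 on the minus strand for DIMT1 and WLS and at chr9:131772084-131772107 on the minus strand for SH3GLB2.
DIMT1: gccgcagagACGCACAactttaca
WLS: tacttgtatACGCACAcaaataca
SH3GLB2: caacctactACGCACAgtgctacc

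Values are log2 signals relative to the 75th percentile of the gene probes of the same array, and each gene is represented by its brightest probe among those that the scanner software called well above background on both miR-210-3p arrays, on both NC arrays or on all of them. Of 43317 gene names on the array, 19909 were tested, and 17629 of these were well above background on all 4 arrays. At an adjusted p under 0.05 in limma, the threshold used for every call below, 1025 genes (5.15%) were higher and 594 (2.98%) lower with miR-210-3p than with NC. Of these, 216 and 138 differed by at least 2-fold. At the threshold of the study, an unadjusted p under 0.05 and at least 2-fold, 390 genes (1.96%) were higher and 205 (1.03%) lower, of which 241 and 59 were not well above background on either array of the lower group. Both miR-210-3p arrays were above both NC arrays for 38.9% of genes and below them for 24.4%. The median log2 fold change of all genes was 0.05, and 41.7% of genes had a negative value.

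Few calls held when an array was left out. Without miR-210-3p replicate 1 the counts at an adjusted p under 0.05 were 73 higher and 38 lower, and without replicate 2 they were 90 and 46. Without NC replicate 1 they were 320 and 248, and without NC replicate 2 they were 272 and 231. The genes called in each of these 4 fits numbered 34 higher and 33 lower. Of the 131 called genes that a rule selected for description, 16 kept the call in every one of them, and these were IL11, PGF, SLC6A13, FAM46C, PRKCE, RFK, ACVR2B, SELE, ISCU, NDUFA4, GPD1L, WLS, COL4A2, WISP2, UGT2B7 and GUCA1A. None of the 131 changed sign under any alternative processing, while over all genes 25 of the 1025 called higher turned negative with a floor at the dimmest measured signal and 1 with outlier spots kept.

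The miR-210-3p arrays lay in the same row of the slide as those of miR-629-3p and the NC arrays in the same row as those of miR-874-3p, so the row and the group cannot be told apart. Each gene was also compared with the mean of the other two mimics, which leaves out the NC arrays, still spans both rows through miR-874-3p, and is called the mimic comparison below. It shares the miR-210-3p arrays with the first comparison and is not independent of it. Statements below about the other mimics refer to this mean, from which either mimic alone can differ. In the mimic comparison, 2472 genes (12.4%) were higher and 1310 (6.58%) lower with miR-210-3p. Within the row, against miR-629-3p, 2910 genes (14.6%) were higher and 2016 (10.1%) lower. More probes passed the background test with miR-210-3p (27080 and 27626) than with NC (24692 and 24338), and no spot was saturated.

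Genes reported as targets of miR-210-3p moved in both directions, but most of those that passed the test fell. Of 51 such genes, 47 were tested, of which 8 fell and 1 rose (19.1% called, against 8.13% of all genes). The median log2 fold change was -0.09. The list was drawn up from general knowledge but with earlier results of these data known, so its share of calls is not independent of the data. The number called lower was 3 without either miR-210-3p array, 5 without NC replicate 1 and 6 without NC replicate 2, and the number called higher was 0 in all 4 cases. In the mimic comparison 11 of the 47 were lower and 6 higher, with a median of -0.07, against 6.58% lower and 12.4% higher of all genes.

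The fall was plain in 3 of the 5 members with a role in iron-sulphur clusters and respiration. ISCU, the scaffold on which iron-sulphur clusters are built (probe at chr12:108963027-108963086, hg19), had log2 signals of 4.87 and 4.93 with miR-210-3p and of 6.09 and 6.04 with NC. Both miR-210-3p arrays were far below both NC arrays, with a log2 difference of -1.17 (SE 0.07, adjusted p = 0.0039). NDUFA4, a subunit of cytochrome c oxidase that RefSeq now lists as COXFA4 (chr7:10973185-10973244), had 6.51 and 6.63 against 7.91 and 7.98. Its level with NC was the highest of the list but for P4HB, and it fell by 1.38 log2 units (SE 0.07, adjusted p = 0.00292). SDHD, a membrane anchor of succinate dehydrogenase (chr11:111965866-111965925), had 2.77 and 2.81 against 3.49 and 3.41, and changed by -0.66 (SE 0.07, adjusted p = 0.00896). Another 2 probes of SDHD gave -0.57 and -0.56, also called among all probes. For COX10, a haem-synthesis enzyme needed for cytochrome c oxidase, the arrays overlapped, with -1.24 and -0.97 against -1.06 and -1.32 and an adjusted p of 0.762. TFRC, the transferrin receptor, had 0.13 (SE 0.07, adjusted p = 0.311).

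These 3 genes also stood apart from the other mimics. In the mimic comparison the log2 fold change was -1.22 for ISCU (adjusted p = 0.00139), -1.33 for NDUFA4 (adjusted p = 0.00134) and -0.53 for SDHD (adjusted p = 0.00687). The call of SDHD against NC was lost without either miR-210-3p array, while those of ISCU and NDUFA4 were not.

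Among the remaining reported targets, GPD1L, a glycerol-3-phosphate dehydrogenase-like protein (chr3:32209871-32209930), had 1.49 and 1.53 with miR-210-3p, against 2.49 and 2.50 with NC. Its arrays were well separated, and it fell by 0.98 log2 units (SE 0.07, adjusted p = 0.00435). FGFRL1, a receptor of the FGF family that lacks a kinase domain (chr4:1019939-1019998), had -0.77 and -0.94 against 0.85 and 0.44. The NC arrays of FGFRL1 were farther apart, for a change of -1.50 (SE 0.24, adjusted p = 0.0249), a call that was lost when any one of the 4 arrays was left out. IGFBP3, which binds insulin-like growth factors in the extracellular space, had 2.28 and 2.47 against 3.73 and 4.14, and changed by -1.56 (SE 0.17, adjusted p = 0.00938). With miR-629-3p, IGFBP3 was lower still, at -2.40 against NC. STAT6 (-0.52, adjusted p = 0.0186) and MID1IP1 (-0.51, adjusted p = 0.0147) completed the group that fell. In the mimic comparison, GPD1L (-0.74, adjusted p = 0.00366), FGFRL1 (-1.42, adjusted p = 0.0115), IGFBP3 (-0.62, adjusted p = 0.0351) and MID1IP1 (-0.54, adjusted p = 0.0064) were lower, and STAT6 had -0.10 (adjusted p = 0.322).

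PTPN1, a tyrosine phosphatase, was the reported target that rose, with 4.40 and 4.41 against 3.85 and 3.90 and a rise of 0.53 (SE 0.09, adjusted p = 0.0299). None of the 11 tested cell cycle and DNA members passed the test. E2F3, a transcription factor of the cell cycle, had a log2 fold change of 0.18 (adjusted p = 0.239), the recombination factor RAD52 -0.26 (adjusted p = 0.216) and the MYC antagonist MNT -0.18 (adjusted p = 0.235). Another probe of MNT gave 0.61 and another probe of E2F3 -0.58, neither of them called. EFNA3, an ephrin ligand, was dim, with -3.10 and -2.90 against -2.85 and -2.33 and an adjusted p of 0.435. ACVR1B, an activin receptor, was not well above background on either NC array (adjusted p = 0.693), and MIR210HG, the host transcript of miR-210, was not tested because it did not pass the filter.

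**Figure D1:**
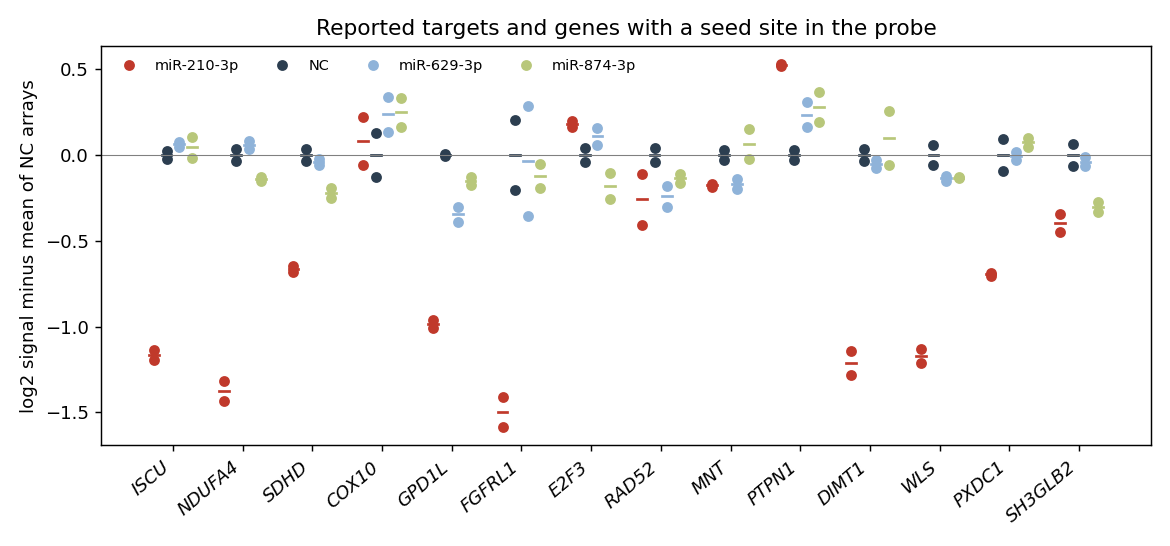
Log2 signal of each of the 8 arrays minus the mean of the NC arrays, for 10 reported targets and 4 genes with a seed match in the probe; points are arrays, bars are group means of 2 arrays, and colours are the groups. ISCU, NDUFA4, SDHD, GPD1L, FGFRL1, DIMT1, WLS and PXDC1 lie below all other arrays with miR-210-3p, while PTPN1 lies above.

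Array probes are short, so a match in a probe reports only on the stretch that the probe covers, and the rest of each transcript was not searched. The match to bases 2 to 8 was present in the probes of 27 tested genes (0.136%). Of these, 4 (14.8%) fell and 1, the noncoding lnc-NADSYN1-1, rose, 63.0% had a negative log2 fold change, and the median was -0.08. Among the 78 genes whose probe held at least the shorter match, which include those 27, 10 (12.8%) fell and 2 rose, and 52.6% had a negative value. One of the 10 was NDUFA4. Probes with the bases 2 to 8 match of miR-629-3p (112 genes, 3.57% lower) and of miR-874-3p (78 genes, 1.28% lower) were near or below the 2.98% of all genes.

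DIMT1, an rRNA dimethyltransferase, had log2 signals of 3.62 and 3.76 with miR-210-3p, against 4.87 and 4.94 with NC. The groups did not overlap, and it fell by 1.21 log2 units (SE 0.12, adjusted p = 0.00855). WLS, the carrier that takes Wnt proteins to the cell surface, had 0.68 and 0.76 against 1.83 and 1.95, and changed by -1.17 (SE 0.07, adjusted p = 0.0039). Other probes of WLS gave -0.98 and -0.23, neither of them called. PXDC1 had -0.23 and -0.25 against 0.37 and 0.55, and changed by -0.70 (SE 0.08, adjusted p = 0.0124). The smallest of the 4 changes was that of SH3GLB2, an endophilin, at -0.40 (SE 0.08, adjusted p = 0.0436). In the mimic comparison DIMT1 (-1.24), WLS (-1.04) and PXDC1 (-0.73) were lower, with adjusted p-values of 0.00389, 0.00228 and 0.00551, while SH3GLB2 had -0.23 (adjusted p = 0.0773). The calls of DIMT1 and PXDC1 against NC were lost without either miR-210-3p array, and that of SH3GLB2 without any one of the 4 arrays.

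**Figure D2:**
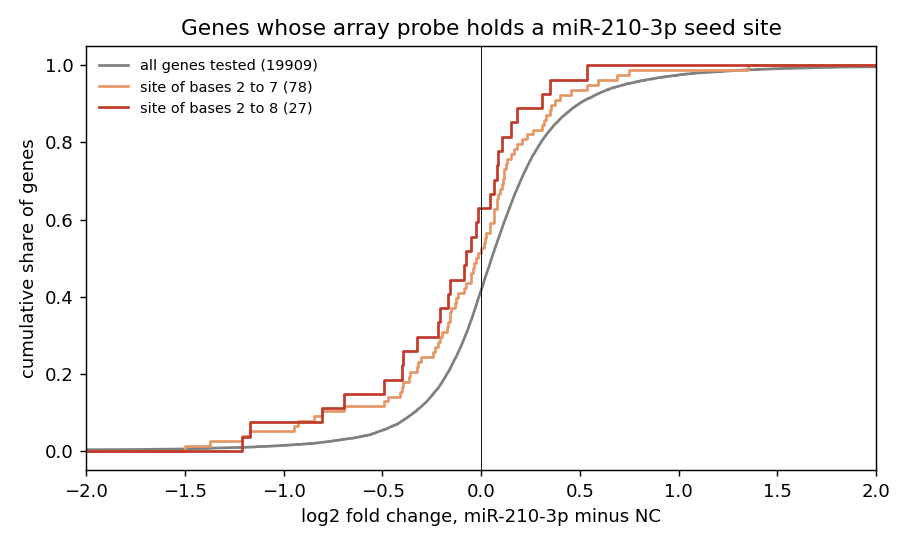
Cumulative share of genes (y axis) by log2 fold change of miR-210-3p against NC (x axis), for all 19909 genes tested and for those whose probe matches bases 2 to 7 (78 genes) or 2 to 8 (27 genes) of miR-210-3p. Below 0 lie 63.0% of the 27, 52.6% of the 78 and 41.7% of all genes.

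The falls in respiration were in single genes and not across the chain. Of 82 tested nuclear-encoded subunits and assembly factors of the 5 respiratory complexes, 3 passed the test, all lower, and the median was -0.02. The 3 made up 3.66%, against 2.98% of all genes called lower and 8.13% called in either direction. They were NDUFA4, SDHD and NDUFA11, a complex I subunit with a fold change, in log2 units, of -0.44 (SE 0.08, adjusted p = 0.037). The other subunits of succinate dehydrogenase had 0.10 for SDHA, -0.01 for SDHB and -0.05 for SDHC. Among 19 genes of iron-sulphur cluster assembly, 3 fell and 1 rose (21.1% called, against 8.13% of all genes). Besides ISCU, FDXR, which passes electrons to ferredoxin, fell (-0.59, adjusted p = 0.0248), as did the late-acting factor IBA57 (-0.59, adjusted p = 0.0317), while FDX1, a ferredoxin, rose (0.71, adjusted p = 0.0331). FDXR had -0.03 in the mimic comparison (adjusted p = 0.824). Without any one of the 4 arrays, ISCU was the one iron-sulphur gene still called, and the number called in the respiratory chain was 1 without either miR-210-3p array and 2 without either NC array.

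Hypoxia-responsive genes that passed the test were mostly lower. Of 34 tested, 7 fell and 1 rose (23.5% called, against 8.13% of all genes), with a median of -0.13. None of 21 glycolysis genes passed (median -0.08). DDIT4, an inhibitor of mTORC1, had 5.01 and 4.87 with miR-210-3p, against 6.12 and 5.89 with NC, and changed by -1.06 (SE 0.17, adjusted p = 0.0261). NDRG1 had 6.44 and 6.45 against 7.52 and 7.42 (-1.03, SE 0.15, adjusted p = 0.0186). ADM, which encodes the vasodilator adrenomedullin, had 4.91 and 4.93 against 5.81 and 5.92 (-0.95, SE 0.08, adjusted p = 0.00696), and TMEM45A fell by 0.93 on the log2 scale (adjusted p = 0.0233). PDK1, BHLHE40 and ANKRD37 fell by 0.55, 0.41 and 0.46, and VEGFA, an angiogenic growth factor, rose by 0.42 (adjusted p = 0.0329). With miR-629-3p, DDIT4 (-1.37), NDRG1 (-1.52), ADM (-0.91) and TMEM45A (-1.34) were also below NC, and VEGFA (0.45) was above it. In the mimic comparison the values were closer to 0, at -0.42 for DDIT4 (adjusted p = 0.105), -0.54 for NDRG1 (adjusted p = 0.0366) and -0.29 for ADM (adjusted p = 0.0421), and over the 34 hypoxia-responsive genes 5 were higher and 7 lower, with a median of -0.01. Within the slide row, against miR-629-3p, the balance of these 34 turned, with 15 higher, 4 lower and a median of 0.32. Of all genes, 14.6% were higher and 10.1% lower against miR-629-3p. Of the 21 glycolysis genes, 8 were higher and none lower in the mimic comparison, against 12.4% and 6.58% of all genes. Over hypoxia and glycolysis together, the 7 calls lower became 0 without either miR-210-3p array, 2 without NC replicate 1 and 1 without NC replicate 2.

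The genes with the largest rises, among protein-coding genes measured on all 4 arrays, had varied roles. IL11, a cytokine of the IL-6 family (chr19:55875788-55875847), had log2 signals of 2.66 and 2.37 with miR-210-3p, against -0.37 and -0.34 with NC. Its rise of 2.87 (SE 0.14, adjusted p = 0.0024) was the largest, and miR-629-3p arrays were also higher than NC, by 2.47. MARCO, a scavenger receptor, had 0.61 and 0.65 against -1.61 and -1.58 (2.22, SE 0.18, adjusted p = 0.00659). CLDN3, a tight junction claudin, had 0.58 and 0.25 against -1.34 and -1.83 (2.0, SE 0.29, adjusted p = 0.0201). The arrays of the 2 groups were clearly separated for all of these.

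SLC6A13, a transporter of GABA and taurine, had 0.95 and 1.02 against -0.81 and -0.91, a rise of 1.84 (SE 0.09, adjusted p = 0.0024). FAM46C, a non-canonical poly(A) polymerase now named TENT5C, had 1.07 and 0.96 against -0.55 and -0.63 (1.60, SE 0.08, adjusted p = 0.0024). PRKCE, an epsilon-type protein kinase C, rose by 1.56 (adjusted p = 0.0039), SPG20, which encodes spartin, by 1.51 (adjusted p = 0.00966) and RFK, riboflavin kinase, by 1.48 (adjusted p = 0.00414). All of these 8 genes were also higher in the mimic comparison, by 0.46 for PRKCE up to 2.99 for MARCO. Against miR-629-3p alone, PRKCE had -0.27 (adjusted p = 0.0924) and IL11 0.40 (adjusted p = 0.0884), neither of them called, while the rest were higher. Another probe of SLC6A13, not well above background with NC, gave 0.71 and was not called. The call of MARCO was lost without miR-210-3p replicate 1, that of SPG20 without either miR-210-3p array, and that of CLDN3 without either miR-210-3p array or NC replicate 2.

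The 8 genes with the largest falls were again taken among protein-coding genes measured on all 4 arrays. Of these, 5 were also lower in the mimic comparison and 3 were not called in it. Over 22302 probes well above background on no array, the median difference of miR-210-3p from NC was -0.55 log2 units. The part of this background difference in the falls of dim genes was not tested. Across the alternatives UGT2B7 ranged from -1.995 to -0.442, MMP12 from -2.71 to -0.70, CCL5 from -2.80 to -0.75 and WISP2 from -2.18 to -1.33. UGT2B7, a glucuronidation enzyme, had -2.91 and -2.999 with miR-210-3p against -0.96 and -1.14 with NC, and fell by 1.90 log2 units (SE 0.10, adjusted p = 0.00284). NUPR1, a stress-induced nuclear protein, had -1.55 and -1.07 against 0.89 and 0.26 (-1.88, SE 0.28, adjusted p = 0.0201). WISP2, a matricellular protein of the CCN family, had -0.47 and 0.02 against 1.67 and 1.76 (-1.94, SE 0.18, adjusted p = 0.00767). With miR-629-3p, WISP2 was also below NC, at -1.58, and miR-210-3p was not called against miR-629-3p alone (-0.36, adjusted p = 0.203). MMP12, a macrophage-type metalloproteinase, fell by 2.08 (adjusted p = 0.0409) and CCL5, a chemokine, fell by 2.16 (adjusted p = 0.0408), with NC arrays that were over 1 log2 unit apart for both. Against the other mimics UGT2B7 (-2.96), NUPR1 (-3.08), WISP2 (-1.32), MMP12 (-1.63) and CCL5 (-1.47) were lower, with adjusted p-values between 0.000708 and 0.0449. Of these, NUPR1 and CCL5 lost the call against NC without either miR-210-3p array or NC replicate 1, and MMP12 without either miR-210-3p array or NC replicate 2.

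The other 3 were not called in the mimic comparison. ATXN1, a polyglutamine-repeat protein, had -2.32 and -2.74 against -0.73 and 1.06 with NC (-2.69, SE 0.54, adjusted p = 0.0418), and another 2 of its probes gave 0.24 and 0.38. ZNF710, a zinc finger protein, had a log2 fold change of -1.69 (adjusted p = 0.00896) and UBD, a ubiquitin-like modifier, -1.67 (adjusted p = 0.0201). In the mimic comparison the values were -0.20 for ATXN1, -0.02 for ZNF710 and -0.25 for UBD, with adjusted p-values of 0.797, 0.953 and 0.443. For UBD the mean joined unlike mimics, at -2.33 with miR-629-3p and -0.52 with miR-874-3p against NC. The calls of ATXN1 and ZNF710 against NC were lost without either miR-210-3p array, and that of UBD without any one of the 4.

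**Figure D3:**
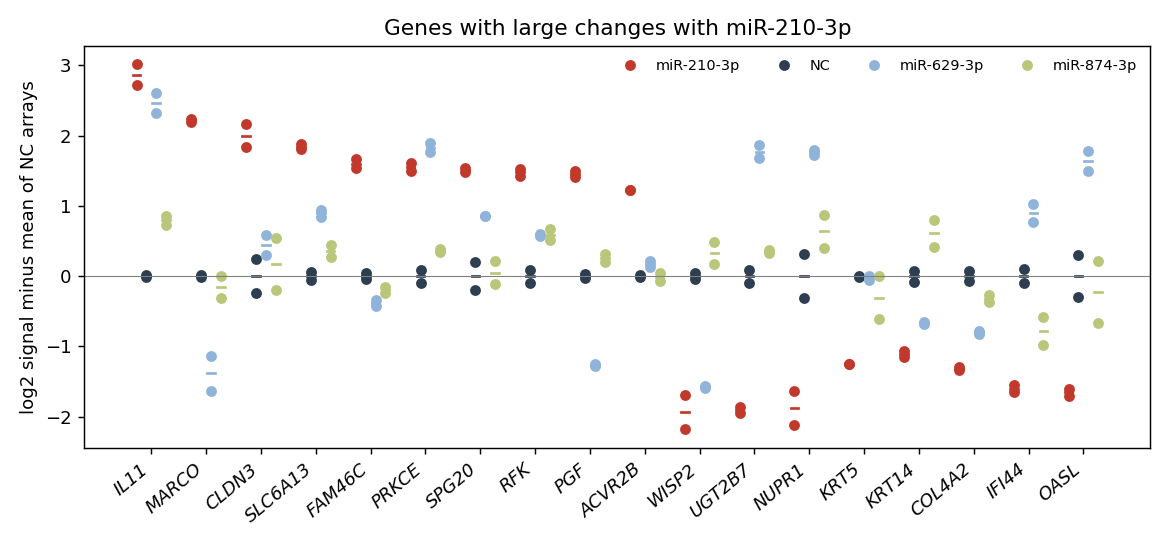
Log2 signal of each of the 8 arrays minus the mean of the NC arrays for 18 genes named in the text; points are arrays, bars are group means of 2 arrays, and colours are the groups. IL11 and PRKCE are high with miR-210-3p and with miR-629-3p, whereas UGT2B7, NUPR1 and OASL are low with miR-210-3p and above NC with miR-629-3p.

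For genes not well above background in the lower group, a fold is only a bound, taken against the dimmest measured signal of each array. XYLB, a xylulokinase, was at least 7.70-fold higher with miR-210-3p (adjusted p = 0.0226), THPO, thrombopoietin, at least 6.67-fold (adjusted p = 0.0147), IFNK, an epithelial type I interferon, at least 6.45-fold (adjusted p = 0.0133) and SELE, E-selectin, at least 6.11-fold (adjusted p = 0.00596). In the other direction, GUCA1A, a guanylate cyclase activator, was at least 8.42-fold lower (adjusted p = 0.0024), OR8G1, an olfactory receptor, at least 7.02-fold (adjusted p = 0.012), RAB39A at least 5.98-fold (adjusted p = 0.0223) and CYP3A5 at least 3.03-fold (adjusted p = 0.00767). These 8 genes passed the filter on detection only through the group where they were higher. The 4 lower genes were not called in the mimic comparison (adjusted p between 0.522 and 0.949). Of the 19 genes called lower against NC in all of 16 limma alternatives, 10 were likewise not well above background on either miR-210-3p array, and none of these 10 was called in the mimic comparison.

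Transcripts without a match to a protein-coding gene showed changes of similar size. LOC101928796 rose by 1.60 (adjusted p = 0.00903), THC2686816 by 1.57 (adjusted p = 0.0171) and LOC101928674 by 1.56 (adjusted p = 0.0296). UNC5B-AS1 fell by 2.20 (adjusted p = 0.0351), ENST00000467298 by 1.69 (adjusted p = 0.0422) and lnc-SLC6A12-2 by 1.68 (adjusted p = 0.0201). The 3 that rose were higher in the mimic comparison as well, with adjusted p-values between 0.0257 and 0.0429. Of those that fell, UNC5B-AS1 (-1.54, adjusted p = 0.0349) and lnc-SLC6A12-2 (-1.08, adjusted p = 0.0229) were lower there too, and ENST00000467298 had -0.32 (adjusted p = 0.486). With miR-629-3p, lnc-SLC6A12-2 was lower still, at -2.11 against NC, while with miR-874-3p it had 0.92.

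Interferon-stimulated genes had the lowest median of the 30 whole lists. Of 41 tested, 16 (39.0%, against 2.98% of all genes) fell and none rose, the median was -0.44, and 40 had a negative value. IFI44 had log2 signals of -0.92 and -0.82 with miR-210-3p, against 0.83 and 0.64 with NC, and fell by 1.60 (SE 0.16, adjusted p = 0.00896). OASL, an oligoadenylate synthetase-like antiviral protein, had -1.06 and -0.95 against 0.94 and 0.35 (-1.66, SE 0.33, adjusted p = 0.04). BST2, which tethers viruses to the cell surface, had -2.49 and -2.75 against -1.25 and -1.36 (-1.31, SE 0.18, adjusted p = 0.0159). The groups were separated for all of these, with OASL the most uneven between NC arrays.

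IRF9, the DNA-binding part of the interferon-activated complex ISGF3, had 0.83 and 0.71 against 1.67 and 1.73, and fell by 0.93 in log2 units (SE 0.10, adjusted p = 0.00938). Its probe also held the shorter seed match. STAT2, the partner of IRF9 in that complex, fell by 0.48 (adjusted p = 0.0457). MX1, an antiviral GTPase, fell by 1.02 (adjusted p = 0.025) and SAMD9L by 1.24 (adjusted p = 0.0328). TRIM22, which was not well above background on either miR-210-3p array, was at least 2.40-fold lower (adjusted p = 0.00696). The mimic comparison gave 20 of 41 lower and 1 higher with a median of -0.43, against 6.58% lower and 12.4% higher of all genes. The comparison with miR-629-3p gave 26 lower and 2 higher, against 10.1% and 14.6% of all genes. With miR-629-3p itself, IFI44 (0.90) and OASL (1.65) were above NC, SAMD9L had 0.02 and BST2 (-1.14) was below NC. With miR-874-3p, IFI44 had -0.79, SAMD9L -0.94, OASL -0.23 and BST2 -0.15 against NC, none of them called. The number called lower against NC was 0 without either miR-210-3p array, 5 without NC replicate 1 and 4 without NC replicate 2.

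Short stretches of the promoters of 4 interferon-stimulated genes that fell are shown because the letters they share, GAAA followed after any 2 bases by GAAA again, on either strand, resemble the element bound by interferon-activated factors. They come from RefSeq windows of 300 bases of GRCh38.p14 around the gene start, most of each before it, with the match in capitals.
IFI44, chr1:78649761-78649790: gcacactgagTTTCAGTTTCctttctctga
BST2, chr19:17405741-17405770: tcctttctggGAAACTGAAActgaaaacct
MX1, chr21:41420559-41420588: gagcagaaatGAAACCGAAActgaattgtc
IFI27, chr14:94110631-94110660: cggtttcctgGAAAATGAAAcctatctcat
BST2 is on the minus strand and its stretch is written along the gene, and in IFI44 the match is on the strand opposite to the gene. The letters were found in 8 of the 11 interferon-stimulated genes that fell and have a window, in 11 of the 19 that were not called, and in 3.65% of all 27305 windows. They were in 6.12% of the windows of genes called lower and in 1.40% of those of genes called higher, over all genes, against 2.92% of the windows of genes tested. A match of letters does not show that a factor binds there.

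Genes of MHC class I antigen presentation also fell against NC, but not against the other mimics. Of 16 tested, 8 fell and none rose (50% called, against 8.13% of all genes), with a median of -0.35. HLA-F had 4.19 and 4.25 with miR-210-3p, against 4.93 and 4.89 with NC (-0.69, SE 0.07, adjusted p = 0.00896). HLA-G fell by 0.52, HLA-B and HLA-C each by 0.43, the light chain B2M by 0.39, the peptide transporter TAP1 by 0.37, the trimming enzyme ERAP1 by 0.38 and the proteasome subunit PSMB9 by 0.42, with adjusted p-values between 0.0256 and 0.0447. Against the other mimics none of the 16 was lower and 2 were higher, near the 6.58% lower and 12.4% higher of all genes. PSMB9 was among those higher (0.29, adjusted p = 0.024), and HLA-F had -0.16 (adjusted p = 0.128). HLA probes can bind transcripts of related HLA genes, so the members are not independent readings. The number called lower was 0 without either miR-210-3p array and 1 without either NC array, and 2 with the 4 arrays fitted alone.

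**Figure D4:**
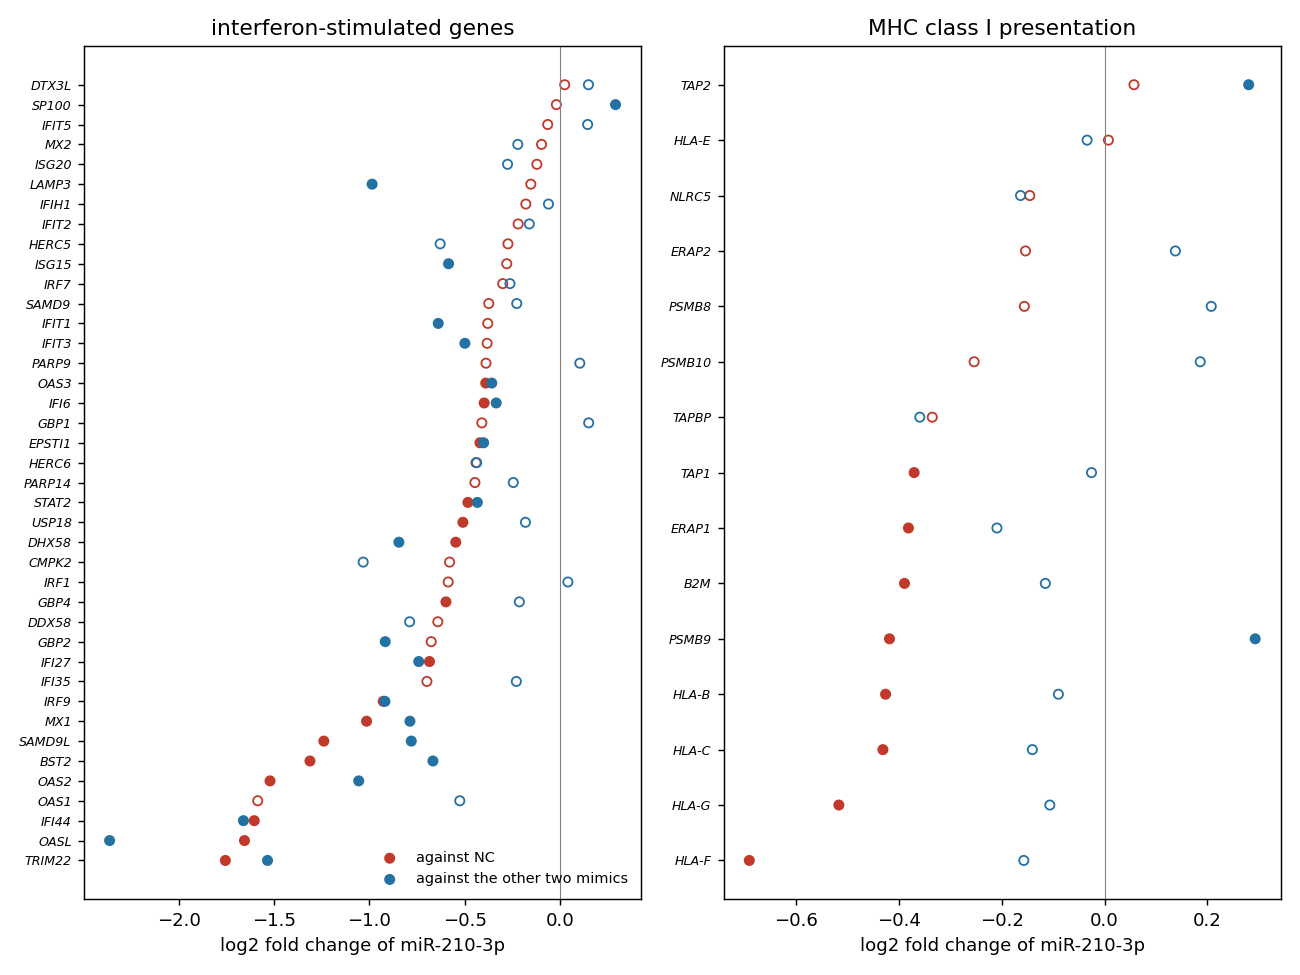
Log2 fold change of miR-210-3p (x axis) for interferon-stimulated genes (left) and MHC class I presentation genes (right) that were tested and are reported here, against NC in red and against the mean of the other two mimics in blue; filled points have an adjusted p under 0.05. The interferon-stimulated genes are mostly below 0 in both comparisons, while the MHC genes that fell against NC, such as HLA-F at -0.69, lie near 0 against the other mimics or, for PSMB9, above it.

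Keratins of basal squamous cells fell. KRT5 had log2 signals of 4.67 and 4.67 with miR-210-3p, against 5.93 and 5.92 with NC, and changed by -1.25 (SE 0.19, adjusted p = 0.0208). KRT14, its partner, had 3.38 and 3.46 against 4.45 and 4.61 (-1.11, SE 0.14, adjusted p = 0.0135), and KRT17 fell by 1.01 (adjusted p = 0.0126) and KRT15 by 0.75 (adjusted p = 0.0365). With miR-629-3p, KRT14 (-0.66), KRT17 (-0.68) and KRT15 (-0.78) were also below NC, while KRT5 had -0.03. Keratin genes are similar to each other, and their probes may share signal. KRT5 (-1.08, adjusted p = 0.012), KRT14 (-1.08, adjusted p = 0.00687) and KRT17 (-0.97, adjusted p = 0.00656) were lower in the mimic comparison too. KRT15 was not called there (-0.35, adjusted p = 0.101). Against miR-629-3p alone, KRT5 was lower (-1.22, adjusted p = 0.00945), while KRT14 (-0.44, adjusted p = 0.0664) and KRT17 (-0.33, adjusted p = 0.104) were not called. Against NC, these keratins were the 4 of 16 basal keratinocyte genes that passed the test (25.0%, against 8.13% of all genes). The list median was -0.35, and TP63, the master regulator of this cell type, had -0.28 (adjusted p = 0.583). The number called was 0 without either miR-210-3p array or without NC replicate 2, and 2 without NC replicate 1.

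Of 30 genes of squamous differentiation, 3 fell and none rose, with a median of -0.20. That share of 10%, all of it lower, was above the 2.98% of all genes called lower and near the 8.13% called in either direction. FLG, the skin barrier protein filaggrin, fell by 1.15 (adjusted p = 0.0299), S100A9, a calcium-binding alarmin, by 1.13 (adjusted p = 0.0225) and KLK5, a protease of the cornified layer, by 0.57 (adjusted p = 0.0331), and 2 further probes of FLG were not called. Without 1 array, at most 1 of these calls was left. NOTCH3 fell by 1.37 (adjusted p = 0.0153), and CD44 itself had -0.10 (adjusted p = 0.521). EPCAM, an epithelial adhesion molecule, rose by 0.39 (adjusted p = 0.0427).

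Genes of epithelial-mesenchymal transition moved both ways, with 5 higher and 4 lower of 38 tested and a median of -0.01. The share called was 23.7%, against 8.13% of all genes. CDH2, N-cadherin, had 4.05 and 3.95 against 3.18 and 3.19 and rose by 0.82 (SE 0.12, adjusted p = 0.0203), and another probe gave 0.86. SNAI2, a repressor of E-cadherin, had 0.84 and 0.83 against 1.59 and 1.52 and fell by 0.72 (SE 0.07, adjusted p = 0.00763). CTGF rose by 1.07 (adjusted p = 0.00981) and TNC by 0.63 (adjusted p = 0.0192), ACTA2 fell by 0.56 (adjusted p = 0.0102) and CALD1 by 0.31 (adjusted p = 0.0499). The epithelial cadherin CDH1 had 0.17 (adjusted p = 0.394) and VIM, vimentin, 0.96 (SE 0.22, adjusted p = 0.0549). Against the other mimics CDH2 (0.85), SNAI2 (-0.87) and VIM (1.48) differed, with adjusted p-values of 0.00825, 0.00253 and 0.00877, while CTGF had 0.22 (adjusted p = 0.184). Leaving out each array in turn left 1 to 2 calls higher and 1 to 3 lower among the 38.

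The chains of type IV collagen parted. COL4A2 had 4.80 and 4.85 with miR-210-3p against 6.07 and 6.21 with NC and fell by 1.32 (SE 0.08, adjusted p = 0.0039), whereas COL4A1 had 2.23 and 2.26 against 1.74 and 1.88 and rose by 0.43 (SE 0.09, adjusted p = 0.0457). COL4A2 kept its call without any one of the arrays and COL4A1 lost it in each case. COL1A1, a fibrillar collagen, was not well above background on either NC array and was at least 4.87-fold higher (adjusted p = 0.0499), with miR-210-3p arrays at -1.63 and 0.53.

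Among genes of matrix proteolysis, 3 rose and 2 fell of 22 tested (22.7% called, against 8.13% of all genes). PLAU, urokinase, had 7.65 and 7.64 against 6.78 and 6.73 (0.89, SE 0.08, adjusted p = 0.0066), PLAT, tissue plasminogen activator, rose by 1.07 (adjusted p = 0.0278) and ADAM19 by 1.36 (adjusted p = 0.0233). MMP2 fell by 0.62 (adjusted p = 0.0366), as did MMP12, given above. Of 25 integrins and laminins, 2 rose (8%), against 5.15% of all genes called higher and 8.13% called in either direction. They were the collagen receptor chains ITGA2 (0.63, adjusted p = 0.0116) and ITGA10, which was not well above background on either NC array (adjusted p = 0.00879). PLAU, PLAT, ADAM19 and ITGA2 were also higher in the mimic comparison. In the proteolysis list, 0 to 1 call in each direction was left without 1 of the arrays.

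Of 18 angiogenic factors and receptors, 3 rose and 2 fell, and of 33 genes of TGF-beta, activin and BMP signalling 2 rose and 2 fell. The shares called were 27.8% and 12.1%, against 8.13% of all genes. PGF, placental growth factor (chr14:75408540-75408599), had 2.79 and 2.70 with miR-210-3p against 1.26 and 1.32 with NC, and rose by 1.46 (SE 0.07, adjusted p = 0.0024). NRP1, a co-receptor for VEGF, had 2.52 and 2.56 against 1.62 and 1.61 (0.93, SE 0.12, adjusted p = 0.0136). ACVR2B, an activin receptor (chr3:38534307-38534366), had 1.60 and 1.60 against 0.38 and 0.36 (1.22, SE 0.07, adjusted p = 0.0039), and TGFBR1, the type I TGF-beta receptor, rose by 1.22 (adjusted p = 0.0182). All 4 were higher in the mimic comparison, by 1.96, 1.09, 1.14 and 1.12. ID1, a BMP target, fell by 0.84 (adjusted p = 0.0327) and FST, an activin antagonist, by 0.40 (adjusted p = 0.0317). PGF and ACVR2B kept the call without any one of the 4 arrays, while NRP1, TGFBR1, ID1 and FST lost it in each case.

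Of 22 FGF and EGF family genes, 22.7% were called, against 8.13% of all genes. FGFR2 fell by 0.62 (adjusted p = 0.0317), and the feedback inhibitors DUSP6 (0.77, adjusted p = 0.00857), SPRY2 (0.53, adjusted p = 0.0296) and SPRY4 (0.68, adjusted p = 0.0473) rose. In the mimic comparison DUSP6 had 0.28 (adjusted p = 0.037), SPRY2 0.09 (adjusted p = 0.479) and SPRY4 0.36 (adjusted p = 0.101). Of 14 ephrins and Eph receptors (21.4% called), EFNA1 (-0.78, adjusted p = 0.0066), EFNB1 (-0.55, adjusted p = 0.0329) and EPHB2 (-0.51, adjusted p = 0.0401) fell, none of which was called in the mimic comparison. Among 31 cytokine and NF-kB genes, 4 rose and 2 fell (19.4% called, against 8.13% of all genes). CSF2, which encodes GM-CSF, rose by 0.98 (adjusted p = 0.0399), IL23A by 0.60 (adjusted p = 0.0134) and BIRC3, an inhibitor of apoptosis, by 0.78 (adjusted p = 0.0201), while IL6 had 1.94 and 1.96 against 2.61 and 2.75 and fell by 0.73 (SE 0.08, adjusted p = 0.00962). Without 1 array, the calls left were 0 to 3 higher and 0 to 1 lower in the FGF and EGF list, 0 to 1 among ephrins, and 1 to 2 higher and 0 to 2 lower among cytokine genes.

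Cell cycle genes had small positive values. Of 48 mitosis genes, 5 rose and 1 fell (12.5% in either direction, against 8.13% of all genes), with a median of 0.12. CDC25A, a phosphatase that activates cyclin-dependent kinases, rose by 0.56 (adjusted p = 0.0407), the kinetochore gene SPC24 by 0.49 (adjusted p = 0.0206), PLK4, which starts centriole duplication, by 0.38 (adjusted p = 0.0325) and the proliferation marker MKI67 by 0.37 (adjusted p = 0.0331), while KIF20A fell by 0.41 (adjusted p = 0.0354). Of 30 G1/S regulators, 4 rose and none fell (13.3% called, against 8.13% of all genes). They were CDK6 (0.66, adjusted p = 0.0184), CCND3 (0.61, adjusted p = 0.0174), E2F8 (0.51, adjusted p = 0.0455) and E2F1 (0.42, adjusted p = 0.0367). Of 46 replication genes, MCM10 and POLA1 rose (4.35%, against 5.15% of all genes). Without any one of the 4 arrays, no mitosis or replication gene was called higher, and at most 1 G1/S regulator. Against the other mimics 33 of 48 mitosis genes and 17 of 46 replication genes were higher and none lower, with medians of 0.38 and 0.25, against 12.4% of all genes higher.

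Regulators of apoptosis rose in 5 of 35 cases and none fell (14.3% called, against 8.13% of all genes), with a median of 0.04. They included both pro-survival genes (BCL2L1, 0.60, adjusted p = 0.0374, XIAP, 0.38, adjusted p = 0.0306, and BIRC3) and pro-death genes (PMAIP1, 0.64, adjusted p = 0.0169, and BCL2L11, 0.42, adjusted p = 0.0492). In the mimic comparison BCL2L11 was higher (0.44, adjusted p = 0.0178). PMAIP1 (-0.02, adjusted p = 0.898), BCL2L1 (0.11, adjusted p = 0.497) and BIRC3 (0.35, adjusted p = 0.0596) were not called there. With miR-629-3p, PMAIP1 (0.95), BCL2L1 (0.82) and BIRC3 (0.80) were also above NC, while BCL2L11 had -0.33. Among 27 p53 targets (22.2% called), PMAIP1 and C12orf5 (TIGAR, 1.02, adjusted p = 0.0333) rose and SFN, BTG2, FDXR and DDB2 fell. SFN, the 14-3-3 sigma protein of squamous epithelium, had 7.39 and 7.41 against 8.29 and 8.43 (-0.96, SE 0.10, adjusted p = 0.00951). Of the 50 genes of platinum adduct repair, 3 were called, a share of 6% that was below the 8.13% of all genes, and ERCC6 (0.39) and FANCM (0.34) rose and DDB2 fell by 0.35, with adjusted p-values between 0.0367 and 0.0424. Of the 24 genes of platinum transport and detoxification, 2 (8.33%) were called lower, against 2.98% of all genes called lower and 8.13% in either direction. LRRC8D, a subunit of the volume-regulated channel, fell by 0.53 (adjusted p = 0.0244) and GSTM3 by 0.30 (adjusted p = 0.0469). Without 1 array, the calls left in these lists numbered 0 to 1 for apoptosis, 0 to 2 lower and none higher for p53 targets, 0 to 1 for repair and 0 for platinum transport.

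The shares of genes called in the metabolic and stress lists ranged around the 8.13% of all genes. They were 22.7% for drug metabolism, 13.2% for the unfolded protein and amino acid response, 7.69% for NRF2 and antioxidant genes, 6.45% for lipid synthesis and 5.26% for histones. The calls among NRF2 and lipid genes were all lower, against 2.98% of all genes called lower. The histone call was higher, against 5.15% of all genes called higher. Of 22 drug-metabolising enzymes, UGT2B7, UGT2B10 (-1.27, adjusted p = 0.0339) and CYP3A5 fell, and CYP24A1 (0.59, adjusted p = 0.012) and CYP1A1, which was not well above background on either NC array (adjusted p = 0.0176), rose. The UGT2B genes are close relatives, and their probes may share signal. Of 38 genes of the unfolded protein and amino acid response, CHAC1 (1.07, adjusted p = 0.0391), DDIT3 (0.45, adjusted p = 0.0198) and GPT2 (0.42, adjusted p = 0.0427) rose, and DDIT4 and NUPR1 fell. Compared with the other mimics DDIT3 was lower, at -0.41 (adjusted p = 0.0102), since it was 1.48 above NC with miR-629-3p. Of 26 NRF2 and antioxidant genes, NQO1 (-0.54, adjusted p = 0.0134) and FTL (-0.36, adjusted p = 0.0492) fell, and of 31 lipid synthesis genes HMGCS1 (-0.54, adjusted p = 0.0297) and ELOVL6 (-0.56, adjusted p = 0.0213). Of 19 histone genes, H3F3A rose (0.38, adjusted p = 0.0439), and none of 15 genes of the microRNA machinery was called by limma. Without 1 array, 1 to 2 drug-metabolising enzymes were called lower, and at most 1 gene in each direction in the stress, antioxidant, lipid and histone lists. A second ELOVL6 probe had the opposite sign, 0.27, and was not called.

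**Figure D5:**
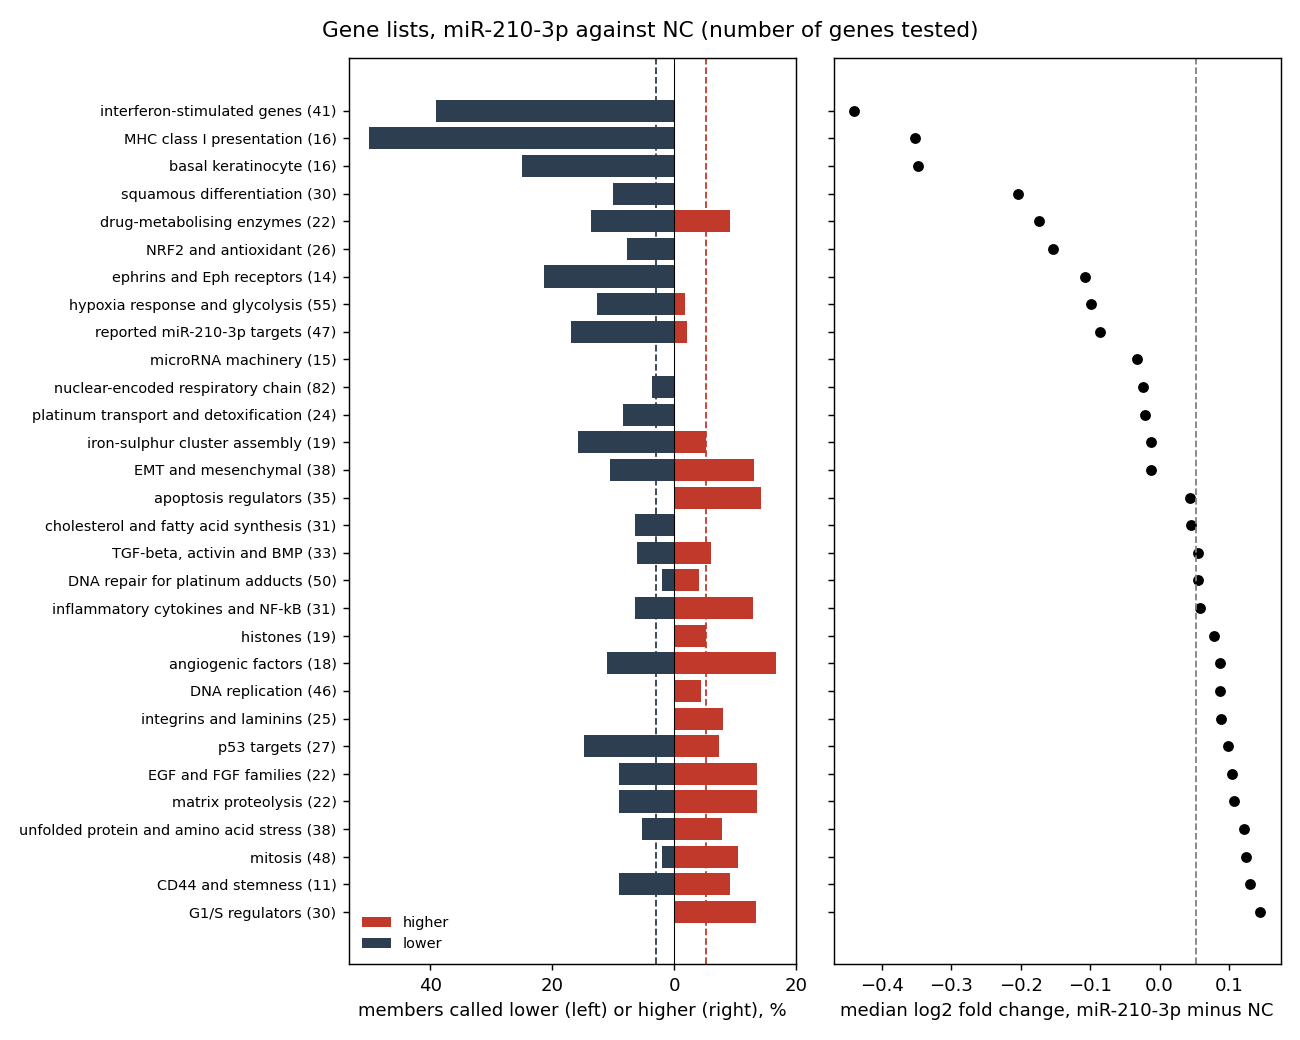
For each of the 30 gene lists, with the number of genes tested in brackets, the percentage of members called lower or higher with miR-210-3p against NC (left, bars, with dashed lines at the 2.98% and 5.15% of all genes) and the median log2 fold change (right, points, with a dashed line at 0.05 for all genes). Interferon-stimulated genes (39.0%) and MHC class I genes (8 of 16) have the largest shares of members called lower.

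Markers of squamous epithelium were present, with all 12 well above background on the 4 arrays. Their summed log2 level was 9.49 on both miR-210-3p arrays and 9.80 and 9.86 with NC. Of these markers, 5 were lower and 1 higher (50% called, against 8.13% of all genes). They include KRT5, KRT14, KRT17, SFN and EPCAM, described above, so they are not separate readings. Of 8 fibroblast markers, 5 were well above background on none of the 4 arrays, including COL1A2, COL3A1, DCN, LUM and PDGFRA, and the summed level was -0.04 and 1.09 with miR-210-3p against -0.66 and -0.67 with NC, where COL1A1 and PDGFRB were higher. Endothelial (0.53 to 0.84) and leukocyte (1.65 to 1.95) markers had like sums in both groups, with PECAM1 and KDR detected on 1 array each, ERG on none, CD3E on 2, and VWF, CDH5, PTPRC and CD14 on all 4. The part of other cells in these results was not tested.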

How the data were processed

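Per the labels, total RNA (100 ng) of each sample was labelled with 1 dye for an Agilent array. The authors deposited, for each array, the scanner output of Agilent Feature Extraction (11.5.1.1 in the submitters' processing notes), whose intensity values are a background-subtracted processed signal, the mean and local background signals and flags, with no normalization across arrays. A series table of log2 values, deposited by the authors too, equalled the scanner-derived values after an offset of -0.049 to 0.004 per array, to within 5.02e-05, and served as an alternative. Its column medians lay between -3.68 and -3.36.

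Control spots and outlier spots (87 to 346 of 60901 per array) were left out, log2 processed signals were averaged per probe, and the 75th percentile over the 58201 gene probes was subtracted. The brightest kept probe represented a gene name, and 14860 of the 19909 tested names matched RefSeq (GRCh38.p14). Probe positions are those of the array on hg19. All 8 arrays were fitted as 4 groups in R 4.3.3 using limma 3.58.1 (lmFit, eBayes) (4 residual and 1.87 prior degrees of freedom), two-sided, and p-values were adjusted by Benjamini-Hochberg across the 19909 genes. SE is that of the moderated fit. Alternatives changed the background correction, scaling, detection filter, floor, probe choice, arrays fitted, variance trend and replicate block, used the t-test named in the methods, and left out each array.

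Genes were named by a rule (the largest changes in each direction, up to 4 called members per list and direction, reported targets, and genes with a seed match in the probe). STAT6, MID1IP1, IRF9, MX1, TRIM22, STAT2, PDK1, BHLHE40, ANKRD37, XIAP, COL1A1, IFI27, B2M, TAP1, PSMB9, ERAP1, TFRC, the other SDH subunits, TP63, CDH1, VIM, CD44, ITGA10 and CYP1A1 were added after their values were seen. Some items are not reported here. The members and the 30 gene lists were chosen with earlier results of these data known. The fit was tested on simulated data with 19909 genes and independent noise. It recovered 62 of 100 genes changed by 1 log2 unit and 83 of 100 changed by 2 between miR-210-3p and NC, beside 13 false calls. Far fewer genes were changed there than the 1619 called in the data, and no slide row was simulated, so these rates may not hold for the data.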

Additional observations from a re-analysis of the deposited data

How the results depend on the processing

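Of all 1025 genes called higher, 25 turned negative with a floor at the dimmest measured signal and 1 with outlier spots kept, while none of the 594 called lower changed sign. None of the 131 called genes described changed sign under the 18 settings tried, of which detection on all 4 arrays could test 127 of the 137 genes described, but the number of calls depended on the settings. At an adjusted p under 0.05 (1025 genes higher, 594 lower) the counts were 1597 and 971 with normexp background correction, 25 and 21 without a filter on detection, 569 and 342 with the 4 arrays fitted alone, 1633 and 1058 with a trend in eBayes, and 0 and 1 by the methods' t-test after Benjamini-Hochberg, where limma called 5513 genes at an unadjusted p under 0.05. At the threshold of the study (390 higher, 205 lower) they were 24 and 47 with normexp, 188 higher with a floor at the dimmest measured signal, 634 and 663 without a filter, 129 and 134 for genes measured on all 4 arrays, and 233 higher by the methods' t-test. The cause of these differences was not tested. Leaving out each array in turn gave 73 to 320 higher and 38 to 248 lower at the adjusted threshold, 414 to 446 and 178 to 334 at that of the study, and a median over reported targets of -0.160 to -0.0504.

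With the replicate number as a block, 439 genes were higher and 242 lower. The numbers do not pair the arrays in the labels, and the correlations of same-numbered deviations were -0.128 to 0.050. Of the 131 called genes described, 58 lost the call under the block, 47 with the 4 arrays alone and 117 without the filter. Scalings moved the median of all genes to between 0.016 and 0.089. With 2 arrays a group, signal near background limits what can be ranked.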

Other observations

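Some genes outside the lists were called in every limma alternative, each fit without 1 array included but not the one limited to genes detected on all 4 arrays, and they are given here as values, chosen after they were seen. MGRN1, an E3 ubiquitin ligase, fell by 1.00 log2 units (SE 0.06, adjusted p = 0.00390 in limma) and had -1.24 against the other mimics (adjusted p = 0.00128). SH3BGRL fell by 1.30 (adjusted p = 0.00435), with -0.96 against the other mimics (adjusted p = 0.00366). IFITM1, an interferon-induced membrane protein that restricts viral entry, fell by 1.48 (adjusted p = 0.00445), with -0.85 against the other mimics (adjusted p = 0.00634). MERTK, a receptor tyrosine kinase for bridging ligands of dying cells, rose by 1.41 (adjusted p = 0.00419), and SPTBN1, a spectrin of the membrane skeleton, rose by 1.15 (adjusted p = 0.00373). Both were also higher than with the other mimics, by 0.85 and 1.13.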
